A study of Mus musculus with 33 samples.

Results

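RNAseq libraries of sorted mammary cells from 33 mice, 1 library per mouse, were used to follow 33 genes of fatty acid oxidation and of the PPAR nuclear receptors. The genes were taken by name from the 55487 gene rows of the count table. No measured value enters that rule, but the list was drawn up with earlier results of these data known. They comprise 19 mitochondrial enzymes and carriers, 5 peroxisomal enzymes, 2 enzymes found in both organelles, 1 cytosolic thioesterase, the 3 PPARs with the coactivator Ppargc1a, and 2 genes of fuel choice and uncoupling. All mice carried MMTV-Cre, which drives Cre recombinase in the mammary epithelium, together with the ROSA mT/mG reporter, which turns cells green once Cre has acted. The Cre line and the line with the tumor transgene were of the FVB background. The floxed Pthrp line was C57BL/6 backcrossed to FVB, and the study states no background for the reporter line. WT mice had the Pthrp wt/wt genotype and PTHrP KO (KO) mice had Pthrp flox/flox, in which Cre deletes the floxed piece of Pthlh, which encodes parathyroid hormone-related protein. Tumor mice also carried MMTV-PyMT, the polyoma middle T oncogene under the mammary tumor virus promoter, and gland mice lacked it. WT tumors were taken at weeks 6, 8 and 10 (n = 3 each) and at week 12 (n = 1), KO tumors at weeks 8, 10 and 12 (n = 3 each), WT glands at weeks 6, 8, 10 and 12 (n = 2 each) and KO glands at weeks 8, 10 and 12 (n = 2 each). The study calls WT week 6 and KO week 8 tumors hyperplasia, WT week 8 and KO week 10 tumors adenoma, and WT week 10 and KO week 12 tumors carcinoma. Tissue was digested, the cells were kept in culture for 48 h and the GFP+ cells were then sorted, so the values describe cultured epithelial cells in which Cre had been active and not intact tissue.

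Counted reads ranged from 28419983 to 130981600 per library, with a median of 46351179. Reads of the PyMT transgene rows numbered 108 to 7576 in the tumors and 0 in every gland. Pthlh ran from 1.52 to 7.14 CPM in WT tumors, from 1.21 to 2.39 in KO tumors, from 3.17 to 8.41 in WT glands and from 2.04 to 6.03 in KO glands. Only part of Pthlh is floxed, so its whole-gene count checks the labels in part. The share of reads on rRNA genes stayed at or below 0.447% in WT libraries but had a median of 0.952% in KO tumors and 6.20% in KO glands. It exceeded 10% in 3 libraries, namely replicate 2 of the KO tumors of week 8, of the KO glands of week 8 and of the KO glands of week 12. The luminal keratin Krt8 and Epcam were high in every library, with Krt8 at 1379 to 4689.6 CPM and Epcam at 525 to 1048 CPM, whereas Adipoq of adipocytes and Ckm of skeletal muscle did not exceed 0.0962 and 0.263 CPM. Other genes of these lists were higher, with Lipe at 11 to 22.4 CPM, Plin4 at up to 10.7 CPM and the muscle actin Acta1 at 1.73 to 64.3 CPM. CPM stands for counts per 1e6 reads, scaled by TMM library size for all genes but Pthlh, for which the counted reads were used.

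Fatty acid oxidation shortens an activated fatty acid by a 2-carbon unit per round. Long chains enter mitochondria as carnitine esters, through Cpt1 on the outer membrane, the carrier Slc25a20 and Cpt2 on the inner membrane. Each round then runs through an acyl-CoA dehydrogenase, a hydratase, a second dehydrogenase and a thiolase, and the electrons of the dehydrogenases pass to the respiratory chain through the electron transfer flavoprotein. Peroxisomes carry a parallel pathway for very long, branched and dicarboxylic fatty acids, which begins with an acyl-CoA oxidase that yields hydrogen peroxide. The PPARs are receptors for fatty acids and related lipids that act with RXR partners, and many genes of both pathways are known as PPAR targets in liver, heart and muscle. In the mammary gland the epithelium is better known for making fatty acids than for burning them.

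Promoter sequences were available in the RefSeq-derived table for 29 of the 33 genes, in 31 windows because Pparg has 3, each from 250 bases before to 50 bases after the start site (GRCm38.p6). The windows of genes with the clearest tumor differences are shown because a shared PPAR response element would be the most direct common feature of such genes. Capitals mark AGGTCA, the hexamer that PPAR and other nuclear receptors bind, CCAAT boxes and GC boxes (GGGCGG), each on either strand. The windows are those of Cpt1a at chr19:3323051-3323350 on the plus strand, Eci2 at chr13:34994095-34994394 on the minus strand, Ech1 at chr7:28825088-28825387 on the plus strand, and the neighbours Acot1 at chr12:84009252-84009551 and Acot2 at chr12:83987611-83987910, both on the plus strand.
Cpt1a: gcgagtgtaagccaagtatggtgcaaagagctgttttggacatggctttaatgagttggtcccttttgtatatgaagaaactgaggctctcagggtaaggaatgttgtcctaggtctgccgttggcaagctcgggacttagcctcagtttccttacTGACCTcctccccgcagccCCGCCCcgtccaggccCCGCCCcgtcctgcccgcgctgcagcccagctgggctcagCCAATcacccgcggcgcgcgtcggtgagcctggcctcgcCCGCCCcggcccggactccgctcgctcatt
Eci2: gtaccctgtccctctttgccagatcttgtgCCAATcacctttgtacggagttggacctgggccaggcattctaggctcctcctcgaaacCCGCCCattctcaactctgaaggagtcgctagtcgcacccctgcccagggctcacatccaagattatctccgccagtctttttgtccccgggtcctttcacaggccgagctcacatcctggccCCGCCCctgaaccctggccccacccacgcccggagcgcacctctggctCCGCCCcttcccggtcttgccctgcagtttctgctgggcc
Ech1: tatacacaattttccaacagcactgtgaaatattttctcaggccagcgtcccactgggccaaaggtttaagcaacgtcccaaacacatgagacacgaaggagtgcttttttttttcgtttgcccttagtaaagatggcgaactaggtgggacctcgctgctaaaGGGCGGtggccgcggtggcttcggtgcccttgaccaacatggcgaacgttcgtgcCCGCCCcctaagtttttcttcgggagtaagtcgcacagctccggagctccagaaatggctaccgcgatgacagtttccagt
Acot1: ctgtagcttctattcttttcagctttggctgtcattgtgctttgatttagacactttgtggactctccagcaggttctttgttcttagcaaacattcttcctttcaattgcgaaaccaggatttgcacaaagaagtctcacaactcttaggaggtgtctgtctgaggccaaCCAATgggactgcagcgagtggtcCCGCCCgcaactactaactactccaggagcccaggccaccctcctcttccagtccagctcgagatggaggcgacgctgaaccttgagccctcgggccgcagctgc
Acot2: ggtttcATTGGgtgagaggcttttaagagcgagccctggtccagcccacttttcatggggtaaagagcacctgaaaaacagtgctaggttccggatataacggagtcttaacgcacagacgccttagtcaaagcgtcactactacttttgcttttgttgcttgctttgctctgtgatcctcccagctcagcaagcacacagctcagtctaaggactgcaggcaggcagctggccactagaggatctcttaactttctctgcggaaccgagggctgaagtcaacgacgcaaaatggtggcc

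No member window held the direct repeat AGGTCANAGGTCA, the classical PPAR response element, against 0.0396% of all 32851 promoter windows. The looser form AGGNCANAGGNCA was also in 0 member windows, against 0.381% of all. The single hexamer AGGTCA, which lies inside the repeat, was in 6 of the 31 windows (19.4%), those of Acadm, Acadvl, Cpt1a and Echs1 and 2 of Pparg, against 16.3% of all windows. Its extended form TCAAGGTCA, the site of estrogen-related receptors, was in 0 member windows against 0.423%. CCAAT boxes were in 14 windows (45.2%) against 37.4% of all, and GC boxes in 24 (77.4%) against 35.7%. Known PPAR response elements often lie outside such short windows, and these matches only describe the letters in them. Hadha and Hadhb, the subunits of the mitochondrial trifunctional protein, face away from each other with 85 bases between their start sites, and their shared promoter is read here from the Hadhb side at chr5:30155003-30155302 on the plus strand.
Hadhb: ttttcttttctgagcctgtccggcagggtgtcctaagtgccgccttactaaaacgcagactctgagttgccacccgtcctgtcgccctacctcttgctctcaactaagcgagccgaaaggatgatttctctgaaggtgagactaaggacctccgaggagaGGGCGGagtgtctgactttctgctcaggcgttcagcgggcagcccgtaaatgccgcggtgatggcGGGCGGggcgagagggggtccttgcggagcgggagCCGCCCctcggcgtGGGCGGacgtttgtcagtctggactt

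Measured per kilobase of exon, the levels of the members spanned more than 2 orders of magnitude. In glands the highest median levels per kilobase were those of Acadvl, the very long chain acyl-CoA dehydrogenase (39.8 CPM per kb), of the uncoupling protein gene Ucp2 (29.7), of the peroxisomal bifunctional enzyme gene Hsd17b4 (28) and of the long chain dehydrogenase gene Acadl (26.1). In tumors Acadvl was again the highest at 44.1 CPM per kb, followed by Acadl at 42.6. The lowest levels per kilobase were those of Ppara, Pparg, Ppargc1a and the muscle isoform Cpt1b, all at or below 0.205 CPM per kb in glands. Of the carnitine palmitoyltransferases, Cpt1a stood at 5.69 CPM per kb in glands and Cpt1b at 0.205, so the liver isoform was by far the higher of the pair as counted. Most exon bases of Cpt1b lie in another gene, as given below, so its level may be counted too low. Among the PPARs, Ppard was far above the other members at 2.47 CPM per kb.

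Some counts could be shared with other genes. In the Gencode M21 annotation, 81.4% of the Cpt1b exon bases lie in the readthrough gene Gm44502 on the same strand and 58.2% of the Etfb exon bases in Gm45233. A total of 42.9% of the Acadvl exon bases face Dvl2 on the other strand, and how HTSeq was set for strand is not given in the sources used here. Of the 75-base windows of Acot2, 20.5% are also found in Acot1, and 11.2% of those of Acot1 in Acot2. For Hadhb 16.7% of the windows recur elsewhere, mainly in pseudogenes, and for Acaa1a 9.5% recur in Acaa1b. The values of these genes carry that uncertainty.

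Tumors differed from glands of the same genotype mainly by modest rises. These covered most mitochondrial enzymes in both genotypes and most peroxisomal enzymes in KO mice. A gene was called at an adjusted p under 0.1 with a fold change over 1.5, and all 33 members were among the 36527 genes tested. In the mean over weeks 6, 8 and 10, WT tumors had 5 members called higher (Cpt1a, Etfa, Eci2, Acot1 and Pparg) and none lower, where 6.21% of all genes tested were called higher. In the mean over weeks 8, 10 and 12, KO tumors had 7 called higher (Cpt1a, Acot2, Ech1, Eci2, Acot1, Pparg and Ppargc1a) and none lower, where 5.16% of all genes were called higher. Without replicate 1 of the WT glands of week 8, 3 members were called in WT mice. DESeq2 called 4 and 7 members, all higher, and 24 and 26 members had an unadjusted p under 0.05 in either direction, where 28.8% and 23.3% of all genes did. Most members changed by less than 1.5-fold, so the adjusted p was also used alone. By that rule 22 of 33 members (66.7%) were higher and 1 was lower in WT tumors, where 10.9% of all genes were higher and 12.2% lower. In KO tumors 23 of 33 (69.7%) were higher and 0 lower, where 9.46% of all genes were higher and 8.03% lower. Well expressed genes pass such a test more easily, and among the 9488 genes with a mean of at least 10 CPM, 22.8% were higher in WT tumors and 21.2% in KO tumors. Of the 27 members above that level, 19 were higher in WT and 19 in KO tumors (70.4% each). The median log2 fold change of the members was 0.34 in WT and 0.39 in KO mice, against 0.03 and 0.09 over all genes tested. In bulk RNA of sorted cells, a change in the kinds of cell present and a change in RNA per cell cannot be told apart.

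**Figure D1:**
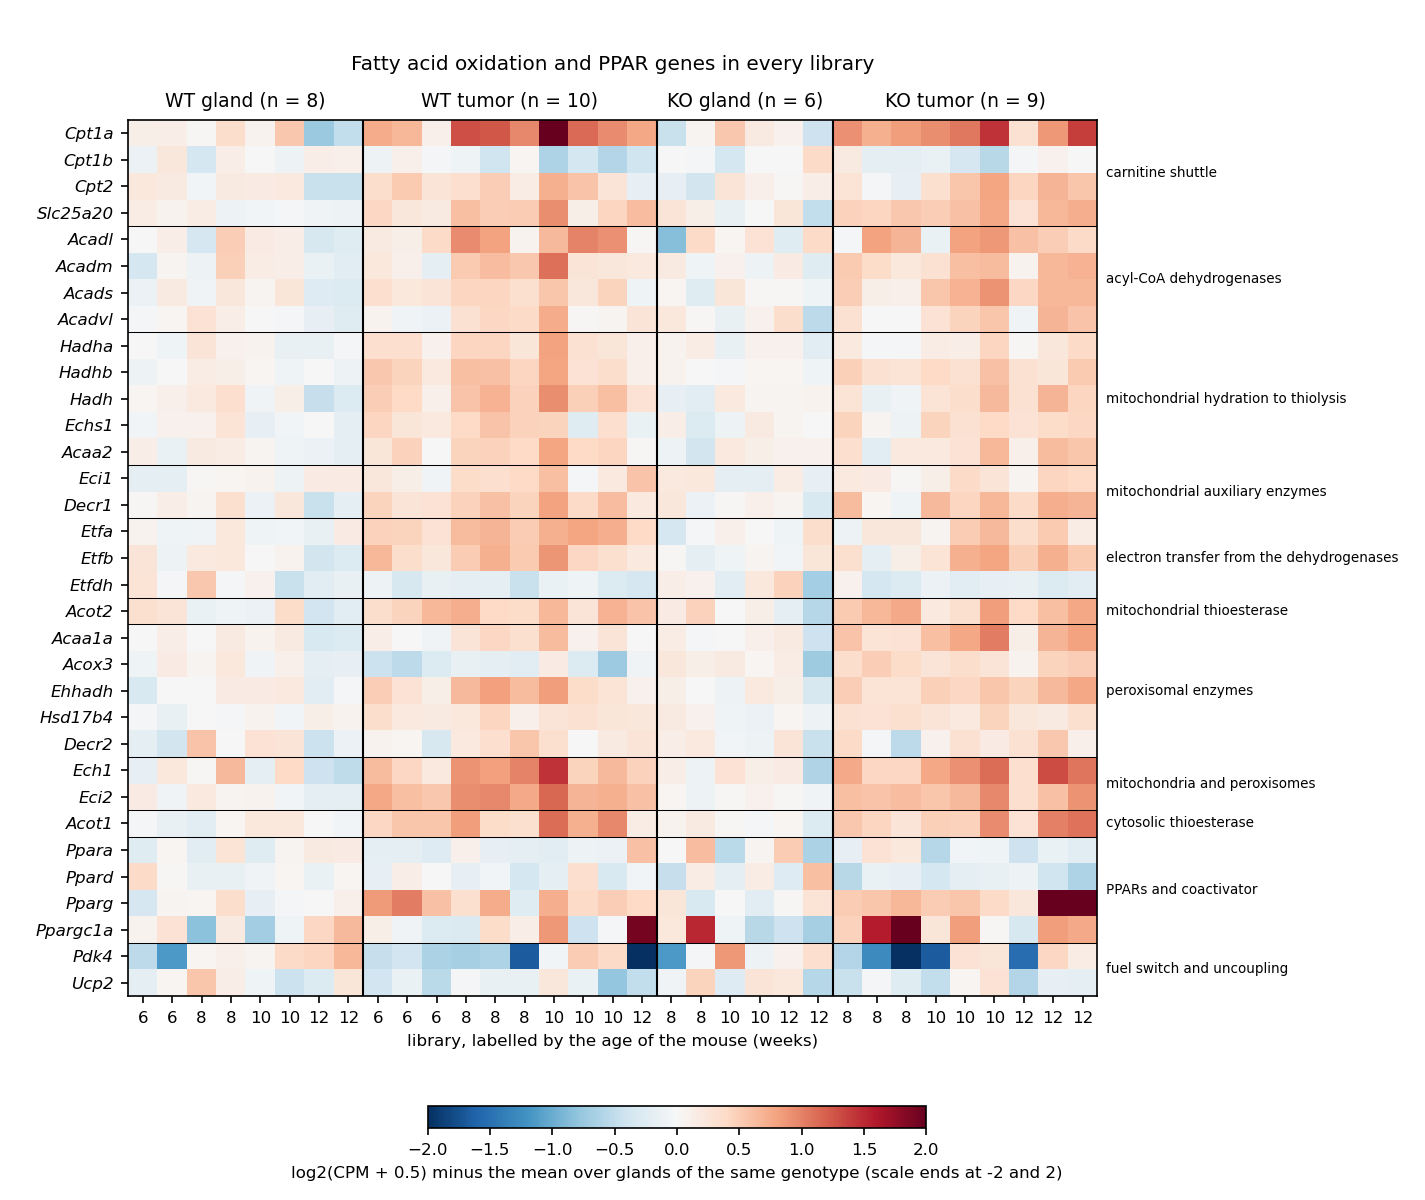
Heat map of the 33 genes (rows, grouped by role) in the 33 libraries (columns, labelled by age in weeks). Colour gives log2(CPM + 0.5) minus the mean over the glands of the same genotype. Most mitochondrial rows are red in both tumor blocks, the row of Eci2 is red in all 19 tumors, and the rows of Ppara, Ppard, Pdk4 and Ucp2 hold mixed colours.

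The mitochondrial and peroxisomal members were counted apart, without a test between them. Of the 19 mitochondrial members, 16 were higher in WT tumors and 14 in KO tumors by adjusted p alone, with a median log2 fold change of 0.36 and 0.39. Of the 5 peroxisomal members, 2 were higher and 1 was lower in WT tumors and 4 were higher in KO tumors, with medians of 0.14 and 0.33. Read per library, the median log2 ratio of the mitochondrial members to the mean gland of the same genotype was 0.18 (lowest), 0.36 (median) and 0.75 (highest) in WT tumors and 0.06, 0.34 and 0.66 in KO tumors, above 0 in all 19 tumors. The glands lay between -0.20 and 0.22 in WT and between -0.09 and 0.08 in KO mice on the same scale. For the peroxisomal members the ratio was -0.08, 0.17 and 0.41 in WT tumors and 0.22, 0.36 and 0.55 in KO tumors, with glands between -0.23 and 0.18 in WT and between -0.42 and 0.15 in KO mice. The mitochondrial ratios of WT tumors overlapped the highest WT gland at their lower end, and so did those of KO tumors, where replicate 2 of week 8 at 0.06 lay below the highest KO gland at 0.08. The peroxisomal ratios overlapped in WT mice, and those of KO tumors lay above all 6 KO glands.

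A total of 20 members were higher in tumors of both genotypes by adjusted p alone, and these 20 were also the members with a positive log2 fold change at all 6 ages compared. Of all genes tested, 5.87% were higher in both by that rule and 10.4% were positive at all 6 ages. They were 14 mitochondrial genes, the peroxisomal Ehhadh and Hsd17b4, both enzymes shared by the organelles (Ech1 and Eci2), Acot1 and Pparg. Hadha and Eci1 passed in WT tumors and not in KO tumors, while Acaa1a, Acox3 and Ppargc1a were higher in KO tumors and not in WT tumors. Cpt1b, Acadvl, Etfdh, Decr2, Ppara, Ppard, Pdk4 and Ucp2 passed in neither. A pass in a single genotype does not show a difference between genotypes, which was tested apart from this.

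**Figure D2:**
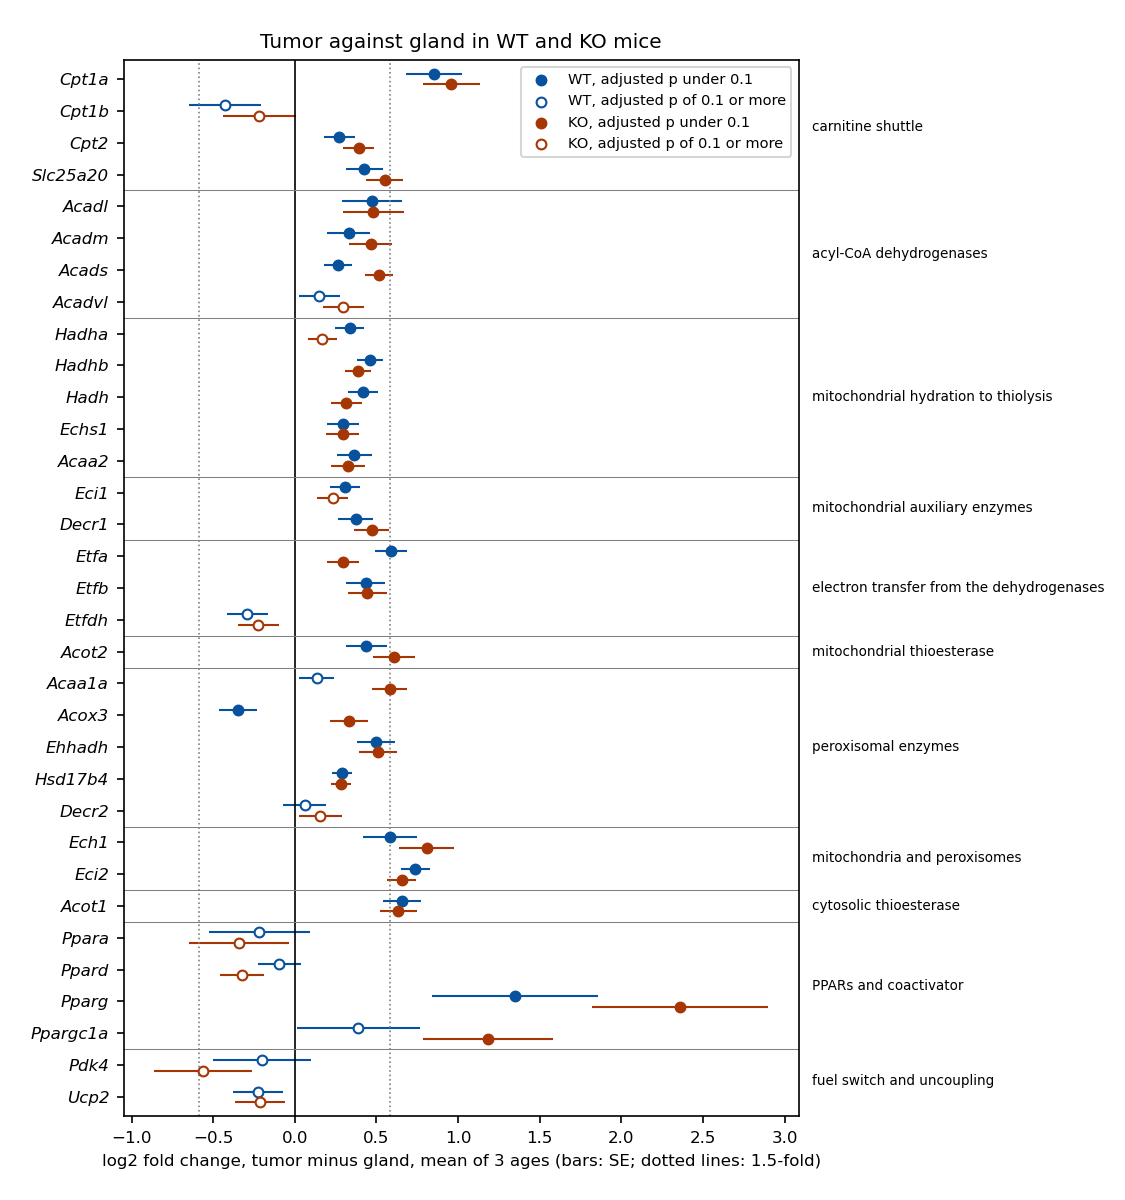
Log2 fold change of tumors over glands for each member (rows), averaged over 3 ages, in WT (blue) and KO mice (brown). Bars are standard errors, filled points have an adjusted p under 0.1 and dotted lines mark 1.5-fold. Filled points lie to the right of 1.5-fold for Cpt1a, Eci2, Acot1 and Pparg in both genotypes. They also do for Etfa in WT mice and for Acot2, Ech1 and Ppargc1a in KO mice. Acox3 is the member with filled points on both sides of 0.

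The carnitine shuttle moved through 3 of its 4 members, and Cpt1a carried most of it. Cpt1a, the enzyme that commits long chains to mitochondria, was at 45.3 and 46.1 CPM in the WT glands of week 6, 42.9 and 53.4 at week 8, 44.1 and 61.2 at week 10 and 25 and 29.8 at week 12. In WT tumors it was at 70.7, 67.1 and 45.1 CPM at week 6, 104, 100.0 and 82.3 at week 8, 179.5, 92.6 and 80.9 at week 10 and 72.3 in the mouse of week 12. WT tumors and glands overlapped at week 6 and were apart at weeks 8 and 10. KO glands held 29.5 and 41.9 CPM of Cpt1a at week 8, 59.2 and 46.1 at week 10 and 42.8 and 30.4 at week 12. KO tumors held 76.8, 66.8 and 72.8 CPM at week 8, 77.8, 84.9 and 111 at week 10 and 49.9, 74.2 and 106 at week 12, so that each age was apart from its glands. At single ages 10.1% to 16.3% of all genes tested had every tumor above every gland, and over the 3 ages compared 2.45% did in WT and 1.99% in KO mice. The log2 fold change of Cpt1a (± SE) was 0.85 ± 0.17 in WT mice (adjusted p = 0.000615) and 0.96 ± 0.17 in KO mice (adjusted p = 0.000246). Over both genotypes, 17 of the 19 tumors were above the highest gland.

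Slc25a20, the carnitine-acylcarnitine carrier of the inner membrane, was at 19, 19.7 and 22.5 CPM (lowest, median and highest) in WT glands and 22.1, 28.2 and 39 in WT tumors. It was at 13, 19.3 and 22.1 CPM in KO glands and 22.5, 27 and 31.9 in KO tumors. KO tumors were all above KO glands, and the log2 fold change was 0.43 ± 0.11 in WT (adjusted p = 0.0081) and 0.55 ± 0.11 in KO mice (adjusted p = 0.00112). Cpt2, which releases the acyl group again inside the mitochondrion, rose less, with 13.6, 21.1 and 21.7 CPM in WT glands and 16.6, 23.9 and 30.7 in WT tumors. In KO mice Cpt2 was at 13.5, 18.4 and 21.1 CPM in glands and 15.5, 23.7 and 30.6 in tumors. Its log2 fold change was 0.27 ± 0.09 in WT (adjusted p = 0.0469) and 0.39 ± 0.10 in KO mice (adjusted p = 0.00506). Cpt1b did not pass in either genotype and had a log2 fold change of -0.43 ± 0.22 in WT mice and -0.22 ± 0.22 in KO mice, at 1.133 CPM or less in every library.

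The acyl-CoA dehydrogenases, which open each round and differ in the chain length they accept, rose in 3 of 4 cases. Acadl, for long chains, was at 37.6, 49.4 and 66.7 CPM in WT glands and 48.1, 68.2 and 94.6 in WT tumors, with a log2 fold change of 0.47 ± 0.18 (adjusted p = 0.0806). In KO mice it was at 36.4, 73.8 and 86.3 CPM in glands and 60.02, 98.4 and 120.1 in tumors, with 0.48 ± 0.18 (adjusted p = 0.09). Acadl was the most variable dehydrogenase, and tumors and glands overlapped in both genotypes. Acadm, for medium chains, was at 29.9, 37.9 and 53.6 CPM in WT glands and 34, 45.3 and 83.2 in WT tumors, a log2 fold change of 0.33 ± 0.13 (adjusted p = 0.0912). It was at 27.9, 33 and 37.3 CPM in KO glands and 34.4, 47.7 and 53.6 in KO tumors, a log2 fold change of 0.46 ± 0.13 (adjusted p = 0.0191). Acads, for short chains, showed the smallest errors of the group. It was at 45.6, 55.1 and 65.4 CPM in WT glands and 52.3, 69.7 and 81.4 in WT tumors (0.27 ± 0.09, adjusted p = 0.0301). In KO mice Acads was at 38.1, 45.8 and 53.5 CPM in glands and 48.2, 66.1 and 84.4 in tumors (0.52 ± 0.09, adjusted p = 0.000101). Acadvl, the most abundant dehydrogenase per kilobase, had a log2 fold change of 0.15 ± 0.13 in WT and 0.30 ± 0.13 in KO mice and passed in neither (adjusted p = 0.483 and 0.136).

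The 5 enzymes from hydration to thiolysis were all higher in WT tumors by less than 1.5-fold, and all but Hadha were in KO tumors. Hadha and Hadhb, the subunits of the trifunctional protein that handles long chains, were both higher in WT tumors. Hadha was at 124, 137 and 166 CPM in WT glands and 147, 173 and 242 in WT tumors (0.34 ± 0.09, adjusted p = 0.00861). Hadhb was at 63.8, 67.8 and 76 CPM in WT glands and 73.5, 92.4 and 118 in WT tumors (0.46 ± 0.08, adjusted p = 0.000107). In KO mice Hadhb was at 61.7, 66.1 and 68.5 CPM in glands and 77.5, 81.3 and 98.9 in tumors, with no overlap (0.39 ± 0.08, adjusted p = 0.00102). Hadha was at 123, 152 and 159 CPM in KO glands and 141, 160.1 and 195 in KO tumors, which overlapped, and did not pass (0.17 ± 0.09, adjusted p = 0.279). Hadh, the hydroxyacyl-CoA dehydrogenase of shorter chains, was at 27, 39.3 and 46.9 CPM in WT glands, 39.9, 52.2 and 71.1 in WT tumors, 31.2, 38.2 and 42.1 in KO glands and 33, 45.6 and 58.8 in KO tumors. Its log2 fold change was 0.42 ± 0.09 in WT (adjusted p = 0.00167) and 0.32 ± 0.09 in KO mice (adjusted p = 0.0201). The short chain hydratase Echs1 changed by 0.30 ± 0.10 and 0.29 ± 0.10 (adjusted p = 0.0352 and 0.0482), from a median of 50.2 to 66.2 CPM in WT mice and from 47.7 to 60.2 CPM in KO mice. The thiolase Acaa2 changed by 0.36 ± 0.11 and 0.33 ± 0.11 (adjusted p = 0.0155 and 0.0406), from a median of 24.2 to 32.8 CPM in WT mice and from 24.7 to 28.7 CPM in KO mice.

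The mitochondrial auxiliary enzymes move the double bonds of unsaturated chains so that oxidation can go on. Decr1, the dienoyl-CoA reductase, was at 24, 33.7 and 41 CPM in WT glands and 37.5, 44.6 and 57.4 in WT tumors (0.37 ± 0.11, adjusted p = 0.014). In KO mice it was at 22.5, 28.7 and 32.7 CPM in glands and 26.2, 43.5 and 46.1 in tumors (0.47 ± 0.11, adjusted p = 0.00294). The isomerase Eci1 was at 16.8, 19.6 and 21.5 CPM in WT glands and 18.2, 23.4 and 29.3 in WT tumors (0.31 ± 0.09, adjusted p = 0.019), and its KO value of 0.23 ± 0.09 missed the threshold (adjusted p = 0.109).

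Of the electron transfer genes, the flavoprotein subunits were higher and the quinone oxidoreductase that receives their electrons was not. Etfa, the alpha subunit, was at 35.4 and 31.7 CPM in the WT glands of week 6, 32.3 and 39.4 at week 8, 31.7 and 32.4 at week 10 and 30.5 and 37.8 at week 12. In WT tumors it was at 46.5, 46 and 41.2 CPM at week 6, 52.9, 54.4 and 48 at week 8, 55.7, 58.8 and 56.5 at week 10 and 44.5 at week 12. Every WT tumor was above every WT gland, and the log2 fold change was 0.59 ± 0.10 (adjusted p = 6.02e-05). Its fold change of 1.51 was close to the threshold of 1.5. It fell below that threshold in 7 of 15 fits that left out 1 library each, those without replicate 1 or 2 of the WT tumors of week 6 or of week 8, replicate 2 of the WT tumors of week 10, replicate 2 of the WT glands of week 6 or replicate 1 of the WT glands of week 8 (log2 fold changes of 0.54 to 0.58), and in 4 of 9 other settings (0.17 to 0.58). In KO mice the glands started higher, at 38 and 47.6 CPM at week 8, 51.8 and 48.4 at week 10 and 45.4 and 62 at week 12. KO tumors were at 45.1, 56.6 and 56.6 CPM at week 8, 50.4, 68.9 and 76.3 at week 10 and 61.8, 69.8 and 53.7 at week 12 and overlapped the glands, with a log2 fold change of 0.30 ± 0.10 (adjusted p = 0.0407). Etfb, the beta subunit, changed by 0.43 ± 0.12 in WT (adjusted p = 0.011) and 0.44 ± 0.12 in KO mice (adjusted p = 0.0124), from a median of 8.52 to 11.6 CPM and from 7.74 to 11.1 CPM. Etfdh, the oxidoreductase, had values of -0.29 ± 0.13 and -0.22 ± 0.13 (adjusted p = 0.124 and 0.324) and was at 72.9, 97 and 144 CPM in WT glands and 72.6, 86.8 and 93.9 in WT tumors.

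The neighbouring thioesterase genes Acot1 and Acot2, which split acyl-CoA in the cytosol and in mitochondria, were both higher. Acot1 was at 30.3 and 27.9 CPM in WT glands of week 6, 26.3 and 31.6 at week 8, 35.8 and 35.6 at week 10 and 30.8 and 29.5 at week 12, against 41.1, 45.7 and 45.6 in WT tumors of week 6, 55.3, 40.1 and 38.7 at week 8, 67.3, 50.5 and 60.4 at week 10 and 34.3 at week 12. In KO glands it was at 31.9 and 34.4 CPM at week 8, 31 and 29.6 at week 10 and 31.1 and 25 at week 12, and in KO tumors at 44.4, 41.1 and 36.2, 42.4, 41.8 and 58.8 and 37.1, 61.4 and 64.9 at the same ages. Tumors of every compared age were above their glands, with a log2 fold change of 0.65 ± 0.12 in WT (adjusted p = 0.000135) and 0.63 ± 0.12 in KO mice (adjusted p = 0.000272). Acot2 was the less abundant per kilobase, with a median of 2.73 CPM per kb in glands against 7.89 for Acot1. It was at 4.88, 6 and 8.53 CPM in WT glands, 7.87, 9.4 and 11.1 in WT tumors, 3.79, 6.15 and 8.277 in KO glands and 6.79, 9.16 and 10.9 in KO tumors. Its log2 fold change was 0.44 ± 0.13 in WT (adjusted p = 0.0153) and 0.61 ± 0.13 in KO mice (adjusted p = 0.00143). The KO call of Acot2 was lost in 4 of 15 fits that left out 1 library each, those without replicate 3 of the KO tumors of week 10 or 12, replicate 1 of the KO glands of week 8 or replicate 2 of those of week 12 (log2 fold changes of 0.53 to 0.57), with a replicate block (0.52) and with basal markers as a covariate (0.52, adjusted p = 0.327). That of Acot1 was lost in 1 of 15, without replicate 3 of the KO tumors of week 10 (0.57).

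Among the peroxisomal enzymes, the members did not move as a group in WT tumors. Ehhadh, the bifunctional enzyme for dicarboxylic chains and a known PPAR alpha target of liver, was at 4.77, 6.09 and 6.93 CPM in WT glands and 6.45, 8.2899 and 11.2 in WT tumors (0.50 ± 0.12, adjusted p = 0.00282). In KO mice it was at 4.33, 5.75 and 6.4 CPM in glands and 6.77, 7.84 and 9.77 in tumors, with no overlap (0.51 ± 0.12, adjusted p = 0.00313). Hsd17b4, the bifunctional enzyme for branched and very long chains, rose by a small amount with little spread. It was at 88.5, 97.1 and 106 CPM in WT glands and 105, 115 and 132 in WT tumors (0.29 ± 0.06, adjusted p = 0.0011). It was at 84.4, 90.8 and 104 CPM in KO glands and 105, 112 and 125 in KO tumors (0.28 ± 0.06, adjusted p = 0.00166). Among the libraries of the ages compared, which leave out week 12 of WT mice, tumors and glands did not overlap in either genotype. Acaa1a, a peroxisomal thiolase, was at 37.2, 47.6 and 52.1 CPM in WT glands and 43.7, 52.9 and 71.8 in WT tumors and did not pass there (0.14 ± 0.11, adjusted p = 0.451). In KO mice it was at 25.6, 35.7 and 38.7 CPM in glands and 37.2, 52.1 and 69.8 in tumors, a log2 fold change of 0.58 ± 0.11 (adjusted p = 0.000382) and 1.5-fold.

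Acox3, an acyl-CoA oxidase of branched chains, fell in WT tumors and rose in KO tumors. It was at 30.7, 35.2 and 41 CPM in WT glands and 21.3, 29.8 and 39.6 in WT tumors (-0.35 ± 0.12, adjusted p = 0.0369). It was at 15, 27.4 and 29.4 CPM in KO glands and 26.1, 32.1 and 35.3 in KO tumors (0.33 ± 0.12, adjusted p = 0.0652). The KO glands were the low group, and the lowest of them was replicate 2 of week 12, where the rRNA share was 18.8%. Decr2, the peroxisomal dienoyl-CoA reductase, had values of 0.06 ± 0.13 and 0.16 ± 0.13 and passed in neither genotype (adjusted p = 0.886 and 0.582).

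The 2 enzymes found in both organelles gave some of the clearest differences. Eci2, an isomerase of unsaturated chains, was at 55.7 and 47.6 CPM in WT glands of week 6, 57 and 52 at week 8, 52.4 and 48.2 at week 10 and 44 and 43.8 at week 12. In WT tumors it was at 85.2, 75.7 and 73 CPM at week 6, 95.1, 97.8 and 84.5 at week 8, 111, 80.2 and 81.5 at week 10 and 74.7 at week 12. KO glands held 52.1 and 47.4 CPM at week 8, 51.5 and 54.1 at week 10 and 51.4 and 48.2 at week 12, and KO tumors 77.6, 75.3 and 78.5, 74.4, 79.9 and 99.4 and 63.9, 76.1 and 94.7 at these ages. The highest gland was thus below the lowest tumor, and Eci2 was the member for which all 19 tumors lay above all 14 glands. Of the 36527 genes tested, 195 (0.534%) had every tumor above every gland and 222 (0.608%) every tumor below. The log2 fold change of Eci2 was 0.74 ± 0.09 in WT (adjusted p = 9.73e-07) and 0.65 ± 0.09 in KO mice (adjusted p = 9.09e-06). Ech1, which isomerizes dienoyl-CoA, was at 16.7, 22.7 and 37.5 CPM in WT glands and 27.4, 37.5 and 65.8 in WT tumors (0.58 ± 0.17, adjusted p = 0.0132). It was at 12.5, 20.9 and 23.4 CPM in KO glands and 24.3, 32.9 and 48.1 in KO tumors, with no overlap (0.81 ± 0.17, adjusted p = 0.00113).

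**Figure D3:**
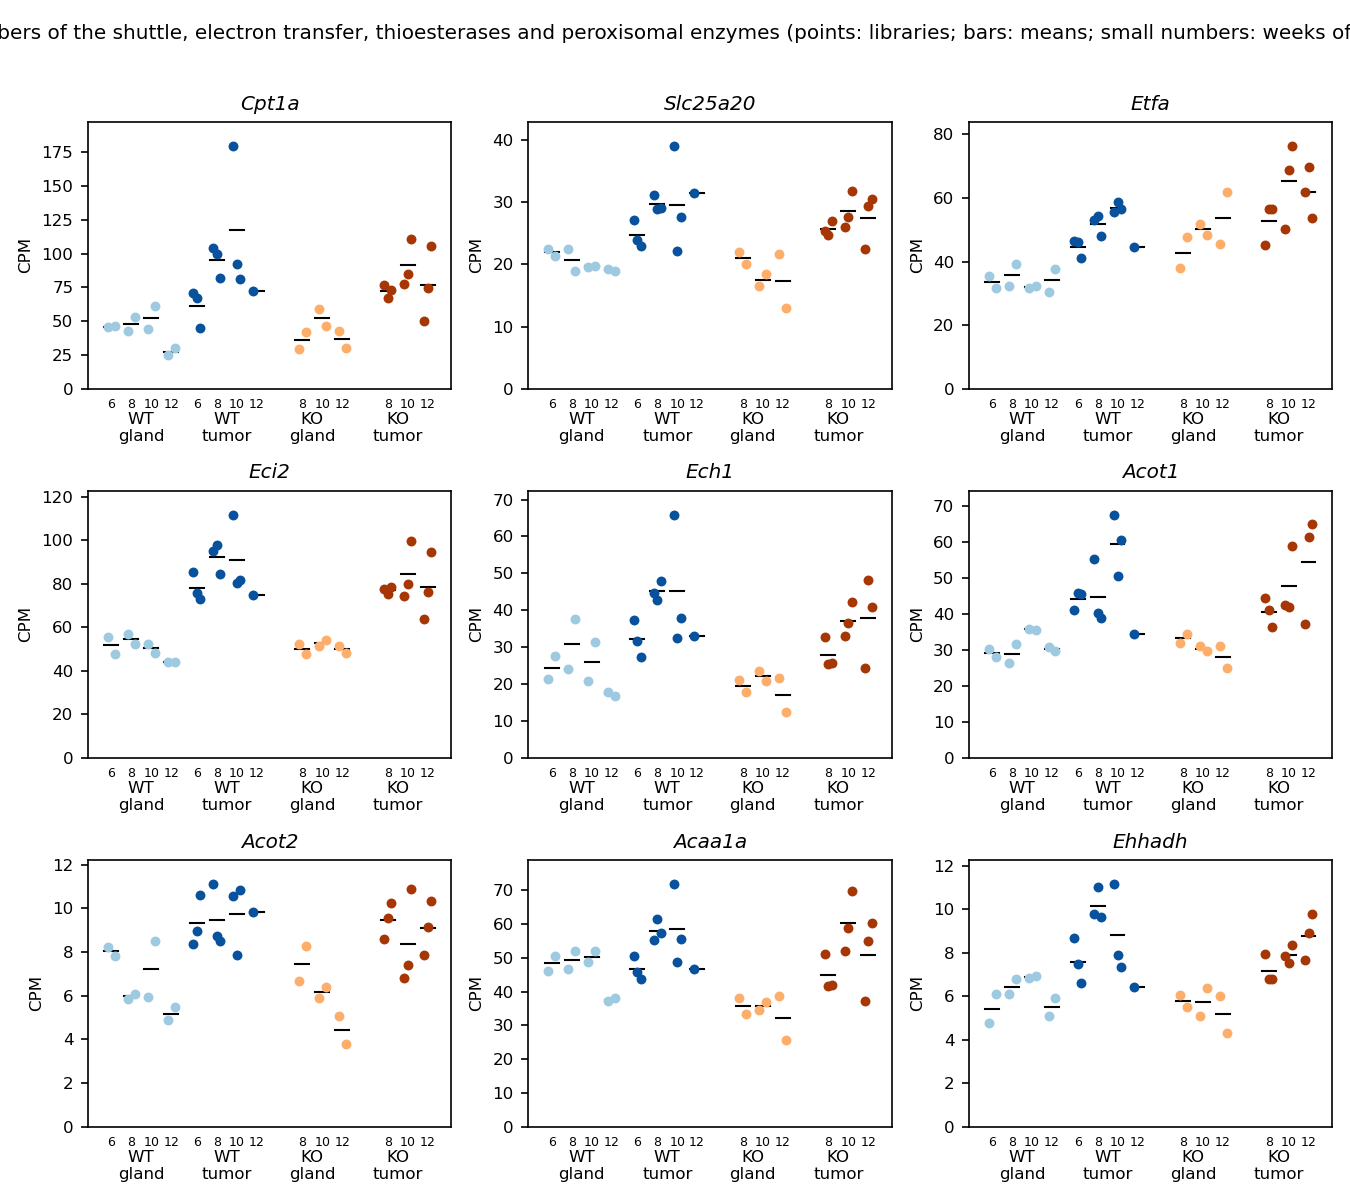
CPM of 9 members in every library (points), by genotype, tissue and week of age (small numbers), with group means as bars. Eci2 tumors lie at 63.9 CPM or higher and its glands at 57 or lower, and the tallest point of Cpt1a, at 179.5 CPM, is a WT tumor of week 10.

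The receptors and their coactivator moved unevenly, with Pparg higher in both genotypes and Ppargc1a in KO tumors. Ppara, the receptor that drives fatty acid oxidation in liver, was at 0.272, 0.447 and 0.606 CPM in WT glands, 0.264, 0.315 and 0.875 in WT tumors, 0.197, 0.597 and 1.15 in KO glands and 0.226, 0.486 and 0.819 in KO tumors. Its log2 fold change was -0.22 ± 0.31 in WT and -0.34 ± 0.31 in KO mice (adjusted p = 0.743 and 0.627). Ppard, the widely expressed receptor, was at 16.2, 17.7 and 23.8 CPM in WT glands, 14, 16.7 and 22.8 in WT tumors, 16.8, 23.4 and 36 in KO glands and 15.2, 20.5 and 22 in KO tumors. It had log2 fold changes of -0.09 ± 0.13 and -0.32 ± 0.13 (adjusted p = 0.747 and 0.123). Neither receptor passed the test in either genotype.

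Pparg, the receptor of adipocytes, was at 1.01 CPM or less in all libraries but 2. In WT glands it was at 0.0905, 0.252 and 0.445 CPM and in WT tumors at 0.128, 0.583 and 1.01, a log2 fold change of 1.35 ± 0.51 (adjusted p = 0.0668). The WT call was lost in 5 of 15 fits that left out 1 library each, those without replicate 2 of the WT tumors of week 6 or 8 or without replicate 1 of the WT glands of week 6, 8 or 10 (adjusted p from 0.101 to 0.172), and with basal markers as a covariate (0.88, adjusted p = 0.746). KO glands were at 0.373 and 0.0962 CPM at week 8, 0.239 and 0.136 at week 10 and 0.249 and 0.394 at week 12. KO tumors were at 0.547, 0.588 and 0.675 CPM at week 8, 0.556, 0.589 and 0.459 at week 10 and 0.365, 15.5 and 3.41 at week 12. The 2 high libraries were thus replicates 2 and 3 of the KO tumors of week 12. The log2 fold change in KO mice was 2.36 ± 0.54 (adjusted p = 0.00294), and it was 1.77 (adjusted p = 0.00673) without replicate 2 of week 12. With basal markers as a covariate it was 1.85 and no longer passed (adjusted p = 0.392). The summed CPM of 10 adipocyte markers was 24.6 and 25.3 in those 2 libraries and 13.5 to 19.5 in the other 7 KO tumors. Of these markers Adipoq did not exceed 0.0420 CPM in KO tumors, while Plin4 ran from 0.452 to 10.7 CPM there. The 5 brown adipocyte markers summed to 17.9 and 11.6 CPM in the same 2 libraries, where the median of KO tumors was 7.47 CPM, with Ucp1 at 0.189 CPM or less in every KO tumor. The part of adipocytes in these Pparg values was not tested. Ppargc1a, the coactivator that drives mitochondrial biogenesis, was at 0.962 and 3.08 CPM in KO glands of week 8, 0.681 and 0.353 at week 10 and 0.443 and 0.295 at week 12. In KO tumors it was at 1.22, 3.23 and 4.56 CPM at week 8, 0.988, 1.74 and 0.775 at week 10 and 0.51, 1.75 and 1.62 at week 12. The groups overlapped widely, with a log2 fold change of 1.18 ± 0.40 in KO mice (adjusted p = 0.0471) and 0.39 ± 0.38 in WT mice (adjusted p = 0.563). With the level of basal markers as a covariate the KO value of Ppargc1a turned to -0.092 (adjusted p = 1). The KO call was also lost without replicate 2 of the KO tumors of week 10, or of the KO glands of week 10 or 12, or without replicate 1 of the KO glands of week 8 (adjusted p from 0.102 to 0.169).

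Pdk4, the kinase that shuts pyruvate out of the citric acid cycle when fat is burned, varied widely from mouse to mouse and passed in neither genotype. It was at 9.64, 23.3 and 35.2 CPM in WT glands and 2.13, 15 and 31.5 in WT tumors (-0.20 ± 0.30, adjusted p = 0.764). It was at 18.3, 41.6 and 75.4 CPM in KO glands and 7.52, 27.1 and 55.1 in KO tumors (-0.56 ± 0.30, adjusted p = 0.272). Ucp2, a carrier of the inner mitochondrial membrane of the uncoupling protein family, was at 145, 192 and 288 CPM in WT glands, 114, 176 and 228 in WT tumors, 157, 246 and 317 in KO glands and 155, 206 and 286 in KO tumors. Ucp2 did not pass either and had log2 fold changes of -0.22 ± 0.15 and -0.21 ± 0.15 (adjusted p = 0.363 and 0.484).

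**Figure D4:**
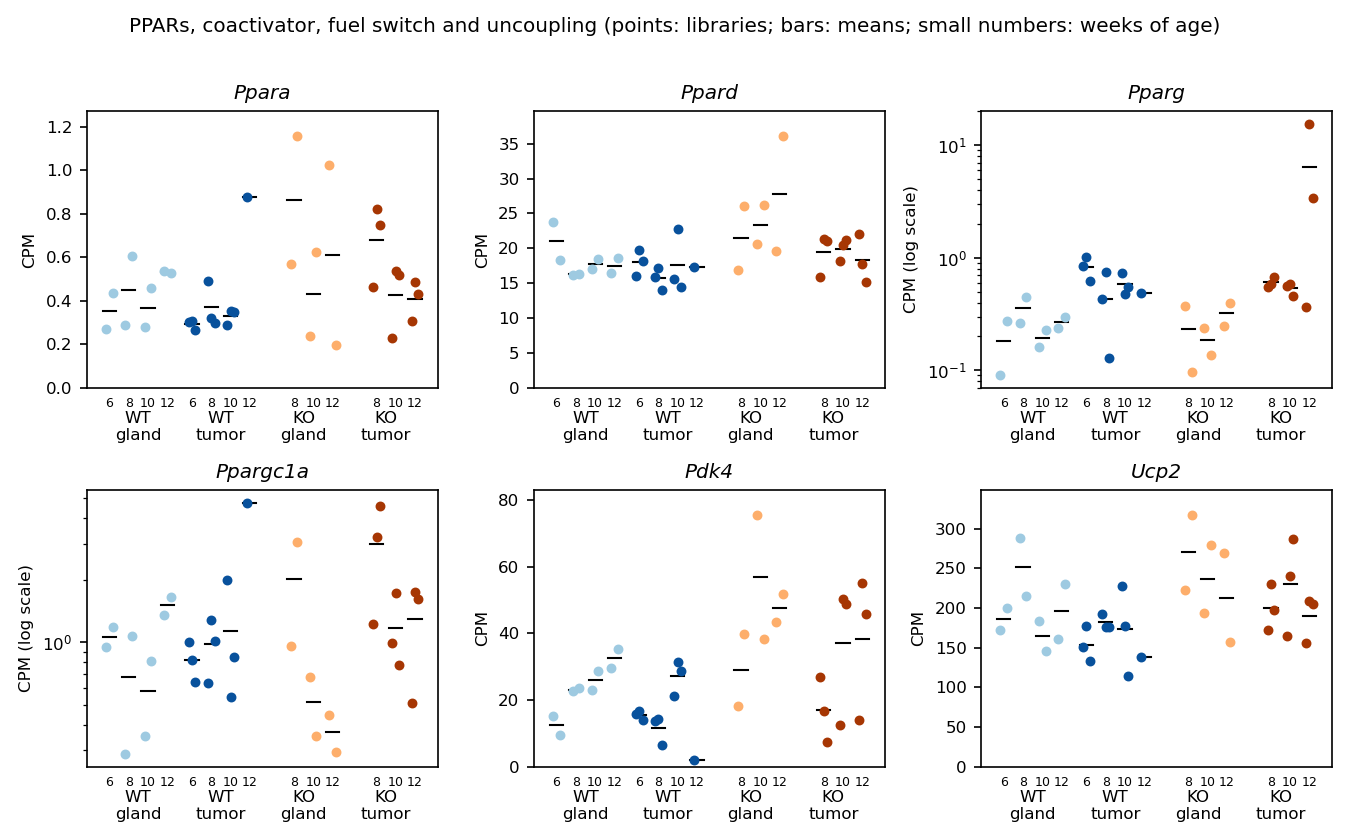
CPM of the 3 PPARs, the coactivator Ppargc1a, Pdk4 and Ucp2 in every library (points), by genotype, tissue and week of age (small numbers), with group means as bars and log axes for Pparg and Ppargc1a. The highest Pparg points, 15.5 and 3.41 CPM, are KO tumors of week 12.

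Marker RNA of other cell types also differed between tumors and glands. All 10 basal or myoepithelial markers were lower in tumors of both genotypes, with a summed CPM of 5311, 9801 and 20766 (lowest, median and highest) in WT glands, 1006, 2547 and 3694 in WT tumors, 5561, 10692 and 19725 in KO glands and 1612, 2513 and 5420.4 in KO tumors. The 10 fibroblast markers summed to 912, 2072 and 4357 CPM in WT glands, 119, 267 and 782 in WT tumors, 443, 2301 and 3664 in KO glands and 82.5, 354 and 1098 in KO tumors. Nearly all of this was Postn, and the other 9 summed to 13.8, 46.8 and 755 CPM in WT glands, 12.8, 33.5 and 142 in WT tumors, 14.3, 32.3 and 127 in KO glands and 11.2, 45.5 and 69.7 in KO tumors. Of the 10, 7 were called lower in WT tumors and 2, Postn and Fbln1, in KO tumors, with none called higher. The 10 luminal markers summed to 4526 to 11101 CPM over all libraries, most of it Krt8 and Krt18. Of the 10, 4 were called lower and 2 higher in WT tumors, and 3 lower and 2 higher in KO tumors. The hormone receptor genes Pgr (-5.47 ± 0.50 in WT and -4.25 ± 0.49 in KO mice) and Esr1 (-2.02 ± 0.31 and -0.84 ± 0.31) and the keratin Krt19 (-2.18 ± 0.24 and -1.41 ± 0.23) were lower in both genotypes and Prlr (-1.24 ± 0.35) in WT tumors. Elf5 (3.01 ± 0.27 and 2.21 ± 0.26), a factor of alveolar cells, and Kit (0.89 ± 0.30 and 1.16 ± 0.30), a marker of luminal progenitors, were higher in both. The part of these luminal differences in the members' values was not tested. Markers of other cell types stayed low, with summed levels over all libraries of 6.66 to 51.1 CPM for macrophages, 1.95 to 22 for endothelial cells, 0.172 to 28.1 for lymphocytes, 6.43 to 66.2 for skeletal muscle and 3.33 to 25.9 for brown adipocytes. Among these, Cox7a1 of the brown adipocyte list (1.03 ± 0.33 in WT and 1.57 ± 0.37 in KO mice) and Mb of the muscle list (1.89 ± 0.30 and 1.84 ± 0.33) were called higher in tumors of both genotypes, at up to 1.65 and 3.49 CPM. In WT tumors 6 endothelial, 4 macrophage, 3 lymphocyte, 3 adipocyte and 1 muscle markers were called lower. In KO tumors 1 endothelial, 2 lymphocyte and 1 muscle markers were lower and 2 macrophage markers, C1qb and C1qc, higher. Their part in the members' values was not tested. With the basal level as a covariate 10 members were called in WT and 14 in KO mice, and the members called were in part others. The share of all genes called in that fit is not given here, so these counts cannot be read as a result about the members. Eci2, Cpt1a and Acot1 remained called in both genotypes and Ech1 in KO mice, whereas Etfa fell to 0.17 (adjusted p = 0.645) in WT mice. The basal sums of tumors and glands did not overlap within either genotype, so the fit with this covariate cannot separate a tumor difference from a basal one. The same limit holds for its values given above for Acot2, Pparg and Ppargc1a. The part of basal cells in the tumor differences was not tested.

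At single ages, 31 calls fell on 14 of the members, all of them higher in tumors, and 19 members were called at no age. Eci2 was called at all 6 ages, Acot1 at 5 and Cpt1a at 4. In WT tumors of week 6, 2 members were called, Eci2 (0.59 ± 0.16) and Acot1 (0.60 ± 0.20), where 2.32% of all genes were called higher. At week 8 there were 5, namely Cpt1a (0.99 ± 0.30), Acot2 (0.67 ± 0.22), Ehhadh (0.65 ± 0.20), Eci2 (0.76 ± 0.16) and Acot1 (0.63 ± 0.20), where 3.35% of all genes were. At week 10 there were also 5, namely Cpt1a (1.16 ± 0.30), Hadh (0.66 ± 0.16), Etfa (0.83 ± 0.17), Eci2 (0.86 ± 0.16) and Acot1 (0.73 ± 0.20), where 2.46% of all genes were. These counts hung on single libraries. Week 6 had 0 or 1 call when any 1 of its 5 libraries was left out. Week 8 had 1 call without gland replicate 1, 3 without gland replicate 2, 2 without tumor replicate 1 and 3 without tumor replicate 2. Week 10 had 2 calls without tumor replicate 1, the library that was highest of all 33 for 17 members, or without gland replicate 1, and gave 12 without tumor replicate 2 and 8 without tumor replicate 3. Tumor replicate 1 also had the highest sum of brown adipocyte markers (25.9 CPM) and the lowest of luminal markers (4526 CPM) of all 33 libraries, and the highest of fibroblast markers among WT tumors (782 CPM). Of the brown adipocyte markers, Dio2 reached 22.9879 CPM among WT tumors, whereas Ucp1 did not exceed 0.188986 CPM there. The part of brown adipocyte, luminal and fibroblast markers in the values of tumor replicate 1 was not tested.

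In KO tumors of week 8, 2 members were called, Cpt1a (1.02 ± 0.30) and Eci2 (0.63 ± 0.16), where 1.11% of all genes were called higher. At week 10 there were 6, namely Slc25a20 (0.70 ± 0.20), Acads (0.59 ± 0.15), Etfb (0.65 ± 0.21), Acaa1a (0.76 ± 0.19), Eci2 (0.68 ± 0.16) and Acot1 (0.65 ± 0.20), where 2.57% of all genes were. Week 8 had 0 or 1 call when any 1 of its 5 libraries was left out. Week 10 had 0 without tumor replicate 3 or gland replicate 2 and 1 without gland replicate 1. At week 12 there were 11, where 3.19% of all genes were called higher. They were Cpt1a (1.06 ± 0.30), Slc25a20 (0.66 ± 0.20), Acads (0.61 ± 0.15), Decr1 (0.72 ± 0.19), Acot2 (1.04 ± 0.23), Acaa1a (0.66 ± 0.19), Ehhadh (0.76 ± 0.21), Ech1 (1.15 ± 0.29), Eci2 (0.65 ± 0.16), Acot1 (0.96 ± 0.20) and Pparg (4.35 ± 0.97). The Pparg value came from tumors at 0.365, 15.5 and 3.41 CPM and ran from 2.58 to 4.91 over the other fits. The count of week 12 fell to 5 without gland replicate 2, the library with 18.8% rRNA reads that was the lowest of all 33 for 14 members, to 5 without tumor replicate 3 and to 7 without tumor replicate 2. Without the 3 libraries over 10% rRNA, which leaves 1 gland of week 12, only Pparg was called, and a fit of the 2 groups of week 12 alone called 0 members.

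The genotypes were then compared. In tumors matched by stage, edgeR passed 0 members by adjusted p alone, where 2.13% of all genes passed, while 10 members had an unadjusted p under 0.05, where 13.2% of all genes did. DESeq2 called 3 of them, Cpt1b, Pparg and Pdk4, all lower in WT than in KO tumors. Pdk4 was at 18.1 against 30.8 CPM in the WT tumors compared and in KO tumors (-0.77 ± 0.27, adjusted p = 0.196). Cpt1b was at 0.443 against 0.65 CPM (-0.61 ± 0.20, adjusted p = 0.156) and Pparg at 0.613 against 2.52 (-1.10 ± 0.42, adjusted p = 0.243), the latter carried by the 2 KO libraries named above. Leaving out single libraries, edgeR called Cpt1b without replicate 2 of the WT tumors of week 10, Pdk4 without replicate 1 of the KO tumors of week 10, and both Pparg and Pdk4 without replicate 1 of the KO tumors of week 12. The mitochondrial members had a median log2 difference of 0.14 and the peroxisomal members of 0.06, against 0.06 over all genes tested. Among the dehydrogenases Acadl was at 72.2 against 95.3 CPM (-0.42 ± 0.16, adjusted p = 0.252), and Hadh at 54.4 against 46.2 CPM (0.24 ± 0.08, adjusted p = 0.17).

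In glands of weeks 8, 10 and 12, 2 members passed by adjusted p alone, where 1.34% of all genes did, and none with a fold change over 1.5 as well by edgeR or DESeq2, while 6 had an unadjusted p under 0.05, where 12.4% of all genes did. Etfa was lower in WT glands, at 34 against 48.9 CPM (-0.52 ± 0.11, adjusted p = 0.0237), and Acox3 was higher, at 35.3 against 25.5 CPM (0.47 ± 0.13, adjusted p = 0.0955). All 6 WT glands of these ages were above all 6 KO glands for Acox3, as they were for 0.438% of all genes. Without replicate 1 of the KO glands of week 12, the fold change threshold was passed by 3 members, Etfa, Acox3 and Ppard, and without replicate 1 of the KO glands of week 8 by Acadl. Of the 6 KO glands, 4 had rRNA shares of 4.35% to 18.8%, above all WT glands, which ranged from 0.00296% to 0.261%. The other 2, replicate 1 of weeks 8 and 12, had 0.0224% and 0.0362%. In these Acox3 was at 29.4 and 27.6 CPM, below every WT gland, and Etfa at 38 and 45.4 CPM, against 30.5 to 39.4 CPM in all WT glands. Acadl was at 36.4 and 86.3 CPM in KO glands of week 8 and 55.4 and 85.5 at week 12, with the higher value in the library of over 10% rRNA. At week 10 it was at 67.5 and 80.02 CPM, with the lower value in the library with the larger rRNA share (8.04% against 4.35%).

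**Figure D5:**
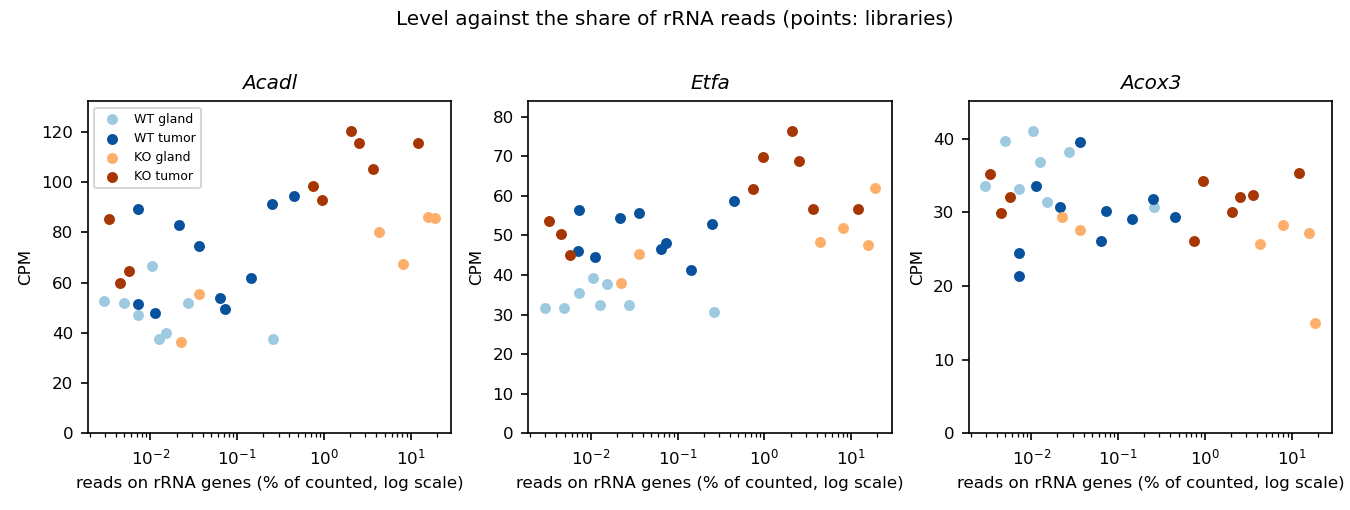
CPM of Acadl, Etfa and Acox3 (vertical axes) against the percent of counted reads on rRNA genes (log scale), 1 point per library, coloured by genotype and tissue. The KO glands above 10% rRNA lie at 86.3 and 85.5 CPM for Acadl, and the lowest Acox3 point, at 15.0 CPM, is the KO gland with 18.8% rRNA reads.

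The tumor difference itself was compared between genotypes. No member passed this interaction test by adjusted p alone in edgeR, where 0.153% of all genes did, and DESeq2 called 1, Acox3. An unadjusted p under 0.05 was found for 4 members and for 10.4% of all genes. For Acox3 the tumor effect was lower in WT than in KO mice by a log2 difference of -0.68 ± 0.17 (adjusted p = 0.114). Acaa1a, the other peroxisomal member with unequal values, had -0.45 ± 0.15 (adjusted p = 0.272), Acads -0.25 ± 0.12 (adjusted p = 0.469) and Etfa 0.29 ± 0.14 (adjusted p = 0.447). The median over the mitochondrial members was -0.07 and over the peroxisomal members -0.10, against -0.08 over all genes tested. The opposite directions of Acox3 in the 2 genotypes thus missed the threshold of the test of their difference. Acox3 was called in 6 of 30 fits that left out 1 library each, those without replicate 1 of the WT tumors of week 10, of the KO tumors of week 12, of the KO glands of week 12, or of the WT glands of week 6, 8 or 10.

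Progression from hyperplasia to carcinoma gave no member call in edgeR. Between WT tumors of weeks 6 and 10 the share of all genes called in either direction was 0.0110%, and 7 members had an unadjusted p under 0.05, where 8.55% of all genes did. DESeq2 called 2 of them, Cpt1a and Cpt1b, and edgeR called Cpt1a once replicate 3 of week 10 was left out. Cpt1a went from 70.7, 67.1 and 45.1 CPM to 179.5, 92.6 and 80.9, with no overlap (0.95 ± 0.26, adjusted p = 0.424), and 6.15% of all genes were above in this way. Cpt1b went from 0.514, 0.666 and 0.558 CPM to 0.211, 0.354 and 0.224 (-1.14 ± 0.36, adjusted p = 0.462). Between KO tumors of weeks 8 and 12 the share of all genes called was 0%, and 9 members had an unadjusted p under 0.05, where 7.88% of all genes did. edgeR called Cpt2 and Decr1 once replicate 1 of week 8 was left out and Pparg once replicate 1 of week 12 was. DESeq2 called Pparg alone (3.41 ± 0.74 in edgeR, adjusted p = 0.442). Cpt2 went from 21.3, 17.2 and 15.5 CPM to 23.7, 28.3 and 26.2 with no overlap (0.53 ± 0.15, adjusted p = 0.477). Hadh went from 44.4, 33 and 35.1 CPM to 45.6, 58.8 and 49.5, also with no overlap (0.45 ± 0.14, adjusted p = 0.547), as was so for 3.58% of all genes in that direction.

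The other genes of these pathways moved unevenly. Over all genes tested, 6.21% were called higher and 9.53% lower in WT tumors, and 5.16% higher and 5.44% lower in KO tumors, and the counts of the lists are to be read against these shares. Of 23 other genes of mitochondrial oxidation, 3 were called higher and 1 lower in WT tumors, and 6 higher and 1 lower in KO tumors. Acad9, a dehydrogenase that also assembles complex I, had 0.95 ± 0.07 in WT and 0.71 ± 0.07 in KO mice, and Ivd, of leucine breakdown, 0.83 ± 0.17 and 0.71 ± 0.17. The brain isoform Cpt1c was lower, with -1.23 ± 0.25 and -1.28 ± 0.25. Of 16 other peroxisomal genes 4 were higher and 2 lower in WT tumors and 4 higher and 0 lower in KO tumors. They included Acox2, the oxidase of bile acid side chains (2.00 ± 0.13 and 1.57 ± 0.13), the thiolase Acaa1b (0.81 ± 0.26 and 1.45 ± 0.27) and Phyh, which starts phytanic acid breakdown (0.63 ± 0.20 and 1.23 ± 0.20). Among 15 genes of peroxisome biogenesis the median log2 fold change was 0.19 in WT and 0.21 in KO mice.

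Of 13 genes of fatty acid uptake and activation, 5 were higher and 3 lower in WT tumors and 1 higher and 1 lower in KO tumors. The acyl-CoA synthetases went both ways, with Acsl4 higher (1.17 ± 0.13 and 1.07 ± 0.13) and Acsl3 lower (-0.99 ± 0.12 and -0.67 ± 0.12). Acsl1 was higher in WT tumors (0.85 ± 0.11), as was the acyl-CoA binding protein gene Dbi (0.78 ± 0.11). Of 15 other known PPAR targets, 4 were higher and 3 lower in WT tumors and 3 higher and 2 lower in KO tumors. The lipid droplet genes Plin2 (1.02 ± 0.15 and 0.74 ± 0.15) and Plin5 (1.78 ± 0.30 and 1.99 ± 0.32) and the lipase inhibitor gene Angptl4 (1.10 ± 0.26 and 1.63 ± 0.26) were higher. Fgf21, a fasting hormone gene (-2.16 ± 0.42 and -1.83 ± 0.44), was lower. Of 16 PPAR partners and related regulators, 0 were higher and 2 lower in WT tumors, with Nrip1 (-0.60 ± 0.10) among the latter, and 2 were higher in KO tumors, the orphan receptor Esrrg (2.58 ± 0.44) and the coactivator Ncoa1 (0.60 ± 0.13). Of 5 other pyruvate dehydrogenase kinases and phosphatases, 3 were called, all in KO tumors. Pdk2 (1.30 ± 0.29) and Pdk1 (0.66 ± 0.25) were higher there and Pdp2 (-0.78 ± 0.11) lower. The 17 genes of the citric acid cycle all changed by less than 1.5-fold. By adjusted p alone 7 were higher and 2 lower in WT tumors and 2 higher and 3 lower in KO tumors. All 17 were above 10 CPM, and among genes at that level 22.8% were higher and 16.8% lower in WT tumors and 21.2% higher and 15.0% lower in KO tumors. Their median log2 fold change was 0.10 in WT and -0.01 in KO mice.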

How the data were processed

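Ribo-depleted total RNA had been sequenced from both ends with a stranded kit. HISAT was used by the authors for alignment to GRCm38 and Gencode M16, Picard 1.128 for removal of duplicates and HTSeq for counting. Raw counts per gene as deposited were used for all tests, and 111 rows that name no gene, with 0.0778% of the reads, were left out. The authors also deposited a signal table of counts divided by a size factor per library, for 35323 identifiers, which became whole reads once the factor was undone (100% of values within 0.001). Its reads equalled those of the count table in 76.7% to 88.7% of values per library and served as an alternative.

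Counts were fitted with edgeR 4.0.16 (quasi-likelihood F test, TMM) in R 4.3.3, with 1 coefficient for each of the 14 groups across the 33 libraries. Genes needed 10 reads in total, which left 36527. P-values were adjusted by Benjamini-Hochberg over all genes, and a standard error is the log2 fold change divided by the root of F. DESeq2 1.42.0 was an alternative. The WT tumor of week 12 entered the dispersion fit but no comparison. The pooled spread assumes that all groups vary alike. The 13 comparisons were tumors against glands at 6 ages and as 2 means, WT against KO in tumors and in glands, the difference of the tumor effects and 2 progressions. Counts of 5772 genes were simulated for the WT mean of tumors against glands. In these, 69% of genes changed 1.5-fold and 96% of those changed 2-fold had an adjusted p under 0.1 with the right sign. The fold threshold of a call was not applied. The changed genes were drawn only from well covered genes, and their spread followed the trend over levels. These shares thus do not give the power for members with low counts or over all 36527 genes.

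Members and lists were chosen with earlier results of these data known. All 33 members were named, with fold changes where called or where their role group is described, and other genes only where called, at most 5 per list by adjusted p. Some genes of these lists are counted but not reported by name here. Samples were grouped by the labels, and mice are separate replicates. Levels per kilobase and exon overlaps used the Gencode M21 annotation (GRCm38), and promoters came from RefSeq windows of 300 bases. Cpt1b, Acaa2, Hsd17b4 and Decr1 had no window in that table. Alternatives were DESeq2, its size factors, no filter, a replicate block, the signal table, rRNA share or basal markers as covariates, the compared groups alone, matched ages, and libraries left out.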

Additional observations from a re-analysis of the deposited data

How the results depend on the processing

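The 43 pairs of a member and a comparison that were called kept their direction and their call in 323 fits with other settings, lost the call in 63 and reversed in 1, and over fits without 1 library they kept it in 245, lost it in 90 and reversed in 0. Cpt1a, Eci2 and Acot1 stayed called in both genotype means, and Ech1 in KO mice, under all 9 other settings. The reversal was Ppargc1a in KO tumors against glands, at -0.092 with basal markers as a covariate, for which the cause was not tested. The basal level did not overlap between tumors and glands of either genotype, so that covariate cannot be separated from the tumor difference. Numbers of members called were moved by these settings. The shares of all genes called under each setting are not given here. With DESeq2 there were 3 for WT against KO tumors, 1 for the difference of tumor effects, 2 for WT progression and 1 for KO progression. Without the filter on low counts they were 9 in WT week 10, 2 for WT against KO tumors, and 1 each for the difference of tumor effects and both progressions. With the rRNA share as a covariate WT week 10 had 8. Without the 3 libraries over 10% rRNA, a setting chosen after seeing the data, KO week 8 had 0 and KO week 12 had 1. With basal markers as a covariate, also chosen later, WT week 10 had 11, KO week 8 had 0, KO week 10 had 11, the WT mean 10, the KO mean 14, WT against KO glands 1 and the difference of tumor effects 1. With the compared groups alone, WT week 10 had 2 and KO week 12 had 0. Without 1 library each, the lowest and highest numbers were 0 and 1 in WT week 6, 1 and 5 in WT week 8, 2 and 12 in WT week 10, 0 and 1 in KO week 8, 0 and 6 in KO week 10, 5 and 16 in KO week 12, 3 and 7 for the WT mean, 5 and 10 for the KO mean, 0 and 2 for WT against KO tumors, 0 and 3 for glands, 0 and 1 for the difference of tumor effects, 0 and 1 for WT progression and 0 and 2 for KO progression. A replicate block on the label numbers, which mark different mice, gave 0 in WT week 6, 1 in KO week 8 and 6 in each genotype mean. Deviations of same-numbered libraries correlated from -0.57 to 0.45 over 12 pairs of libraries, 3 of them over 0.1. The 2 pairs of KO week 8 were at 0.42 and 0.45. With 2 glands per group these values are not independent, so they cannot decide whether the numbers pair the mice. Size factors of DESeq2 shifted no comparison's median by more than 0.04 on the log2 scale. Groups of 2 or 3 mice limit all comparisons, and counts are low for Ppara, Pparg, Ppargc1a and Cpt1b.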

Other observations

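The WT tumor of week 12 stands alone in its group and entered no comparison. Its Eci2 level of 74.7 CPM and its Cpt1a level of 72.3 CPM lay within the range of the other WT tumors, which ran from 73.0 to 111.4 CPM for Eci2 and from 45.1 to 179.5 CPM for Cpt1a. Its Acot1 level of 34.3 CPM was the lowest of the WT tumors. Ppargc1a was at 4.75 CPM, the highest of all 33 libraries, and Pdk4 at 2.13 CPM, the lowest of all 33. Ppara, at 0.875 CPM, was the highest of the WT tumors. With 1 mouse these values have no replicate error.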
